A study of Rattus norvegicus with 12 samples.

Results

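Cytochrome P450 genes, named Cyp with a family number, a subfamily letter and a gene number, were followed in the livers of rats that develop hepatitis and liver tumors without treatment. Every probe set with a single annotated symbol of that form was taken, apart from those of Cyp7a1, Cyp7b1, Cyp8b1 and Cyp27a1, which belong to bile acid synthesis, and a gene with several probe sets was represented by the one with the highest mean over all arrays. This gave 53 genes of 29 subfamilies, out of 14217 genes measured. The 53 genes had 60 probe sets, and another 7 P450 probe sets were left out because they were annotated to several genes. Whether a probe set that was kept also detects close relatives of its gene was not tested.

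The 12 Affymetrix arrays were hybridised with RNA pools of liver. Tumor tissue and adjacent nontumor tissue of Long Evans Cinnamon (LEC/Crj) rats aged 67 weeks had 4 arrays each, and each of these arrays mixed RNA of 2 of 8 paired specimens. LEC liver had 1 pooled array at each of 4, 26 and 39 weeks, and liver of Long Evans Agouti (LEA) rats aged 67 weeks, the control strain, also had 1. All rats were labelled male and were kept specific pathogen-free. LEC rats carry a defect in the copper transporter gene Atp7b and store copper in the liver, which LEA rats do not. Pools of 2 specimens carry less spread than single rats would, the number of rats in the other pools is not given in the sources used here, and the p-values below measure only the spread between these arrays.

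P450 enzymes are heme proteins of the endoplasmic reticulum or the mitochondrion that put an oxygen atom from molecular oxygen into their substrate, with electrons handed over by a reductase. In liver, families 1 to 3 oxidise drugs, carcinogens and steroid hormones and are controlled by the receptors Ahr, Nr1i2 and Nr1i3. Family 4 oxidises the ends of fatty acids, with its subfamily 4a under control of Ppara. The remaining families act mainly on steroids, retinoids and sterols. In rats the pattern of growth hormone release makes several P450 genes of hepatocytes male-biased and others female-biased.

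All values are log2 expression values made by RMA, so a difference of 1 is a 2-fold difference, and levels are compared between arrays for the same probe set only. The brightest of 27 probe sets against sequences absent from the rat lay between 5.52 and 5.67 on tumor arrays, between 5.88 and 6.01 on nontumor arrays, between 6.15 and 6.22 on the younger LEC arrays and at 6.11 on the LEA array. Of the 53 P450 genes, 42 were above that mark on all 12 arrays. Cyp11b1 and Cyp2b12 were at or below it on all 12 arrays, so they had no level apart from background, and the other 9 genes were at or below it on some arrays.

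Several arrays stood apart or went against their labels. Xist, the RNA of the silenced X chromosome, was between 11.36 and 13.12 on 10 arrays, and at 5.27 and 5.67 on the arrays labelled LEC 26 weeks and LEC 39 weeks. The Y-linked Eif2s3y was between 3.65 and 3.81 on the same 10 arrays and at 8.90 and 8.18 on those at 26 and 39 weeks. So 10 arrays, among them all tumor and nontumor arrays, the LEC array at 4 weeks and the LEA array, had the sex-chromosome pattern of females beside a label of male. The brightest probe set of Uty, also of the Y chromosome, was between 9.68 and 10.70 on all 12 arrays and did not separate them. Tumor array 4 held the lowest levels of the hepatocyte markers, as given with the first comparison.

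The first comparison asked which P450 genes differ between liver tumors and the tissue beside them. In LEC tumors at 67 weeks 40 of the 53 P450 genes fell, 2 rose and 11 did not pass the test, set against nontumor LEC liver (limma, adjusted p under 0.05). The 40 include Cyp11b1 and Cyp2b12, which had no level apart from background, and some genes close to background. The background mark was itself lower on tumor arrays (5.52 to 5.67) than on nontumor arrays (5.88 to 6.01). Its part in small falls near background was not tested. Over all genes tested, 29.2% were called lower and 38.8% higher in tumor. The median difference of the 53 genes was -1.81, beside 0.07 for all 14217 genes. Of the 40 genes that fell, 30 fell more than 2-fold, 20 more than 4-fold and 14 more than 8-fold. The levels of 41 P450 genes did not overlap between tumor and nontumor arrays, where 63.8% of all genes did not overlap. Lower in tumor without overlap were 39 of the 53 P450 genes, beside 3935 of all 14217 genes.

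**Figure D1:**
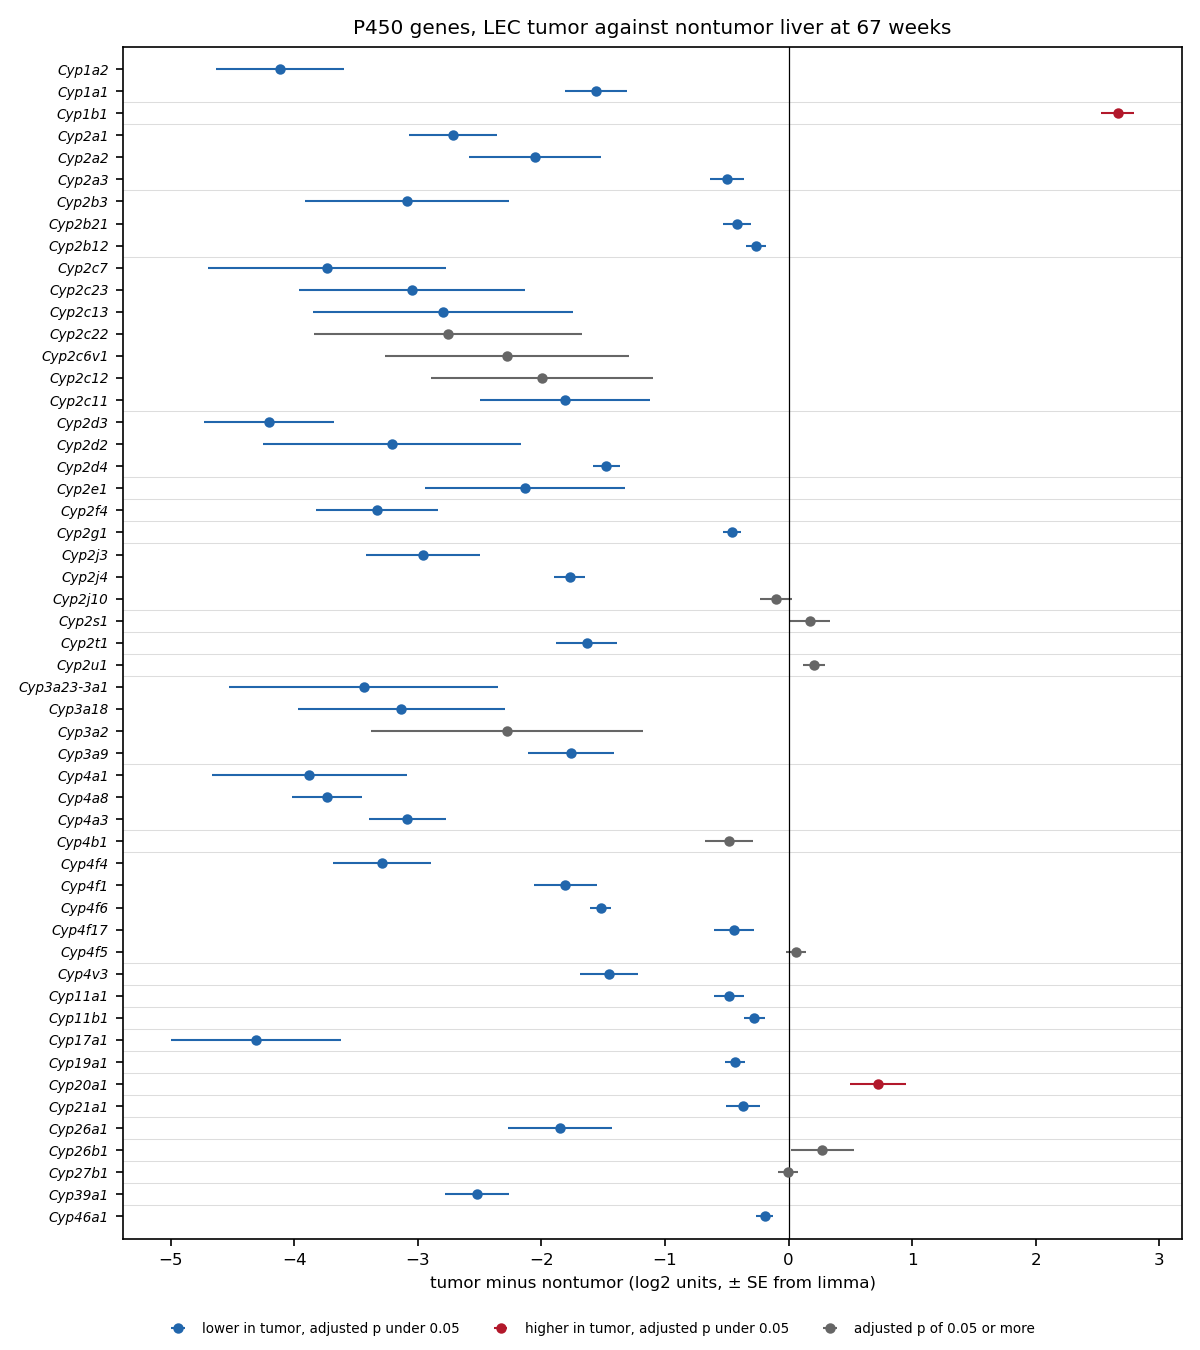
Tumor minus nontumor difference on the log2 scale (horizontal axis) with its limma standard error for each of the 53 P450 genes (rows, by subfamily), in blue where the gene is called lower, red where higher and grey where neither. Of the 53 genes, 40 are blue and 2 red (Cyp1b1 and Cyp20a1), and the median of the 53 is -1.81.

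Families 1 to 3, the enzymes of drugs and carcinogens, had 24 of 32 genes lower and 1 higher, with a median of -2.09. Family 4, the fatty acid hydroxylases, had 8 of 10 genes lower and a median of -1.66. Families 11 and above had 8 of 11 genes lower and 1 higher, with a median of -0.37. Some of these genes stood near background in nontumor liver, such as Cyp11b1 (mean 5.10) and Cyp19a1 (mean 6.38), beside a background mark of 5.88 to 6.01. The largest falls in this group were those of Cyp17a1 (-4.31), Cyp39a1 (-2.52) and Cyp26a1 (-1.85). The part of level in the median was not tested. The difference between the families was not tested.

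The tumor arrays differed among themselves, with a median SD over the 40 genes that fell of 0.54 in tumor and 0.34 in nontumor. The median difference of the 53 genes from the nontumor mean was -1.48 on tumor array 1, -1.85 on array 2, -0.86 on array 3 and -2.22 on array 4. Array 4 was the lowest tumor array for 25 of the 40 genes that fell, and array 3 the highest for 29. In 16 genes the SD of the tumor arrays was over 1, and in each of these array 4 was the lowest and array 3 the highest.

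Markers of other cell types moved with this comparison. Among 5 measured hepatocyte markers Ttr, Apoh and Serpina1 fell, and the log2 of the summed level of all 5 was 15.79, 15.08, 16.21 and 13.95 on tumor arrays 1 to 4, against 16.41 to 16.45 on nontumor arrays. All 4 measured bile duct markers rose (summed level 14.55 to 14.68 in tumor, 10.28 to 12.00 in nontumor), and so did all 6 matrix and stellate cell markers (13.75 to 14.40 in tumor, 11.54 to 12.01 in nontumor). Of the others, 4 of 5 lymphocyte markers rose, 1 of 4 macrophage markers rose and 2 fell, and 2 of 3 endothelial markers rose and 1 fell. Of the defining markers, Lum alone was within the background range on nontumor arrays, at 5.07, 5.23 and 4.68 on arrays 1, 3 and 4. In bulk tissue fewer hepatocytes and less RNA per hepatocyte cannot be told apart, and the part of these markers in the fall of the P450 genes was not tested.

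**Figure D2:**
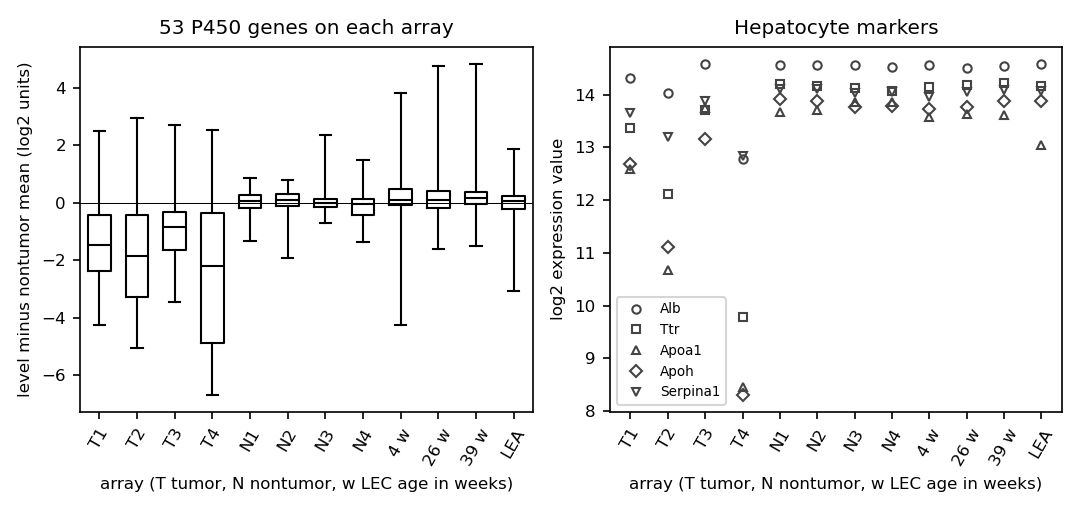
The left panel shows, for each of the 12 arrays, the level of the 53 P450 genes minus the mean of the 4 nontumor arrays on the log2 scale (box, median and quartiles over genes; whiskers, lowest and highest gene), and the right panel the log2 level of 5 hepatocyte markers on the same arrays. The medians of the P450 genes are -1.48, -1.85, -0.86 and -2.22 on tumor arrays 1 to 4, and array 4 also holds the lowest hepatocyte markers.

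Family 1 holds the enzymes induced through the aryl hydrocarbon receptor Ahr, which activate polycyclic hydrocarbons and aromatic amines, and its members went in opposite directions. Cyp1a2, a constitutive hepatocyte enzyme that oxidises caffeine and aromatic amines, had levels of 7.97, 7.87, 9.28 and 7.34 on tumor arrays 1 to 4, against 12.78, 13.01, 12.22 and 10.92 on nontumor arrays. Every tumor array was below every nontumor array, and Cyp1a2 fell 17.4-fold (difference -4.12 ± 0.52 SE, n = 4 each, limma adjusted p = 0.000187). Cyp1a1, the inducible hydrocarbon hydroxylase, had 7.48, 7.08, 7.63 and 6.92 in tumor and 8.60, 8.36, 8.87 and 9.50 in nontumor. It fell 2.94-fold without overlap (difference -1.56 ± 0.25 SE, adjusted p = 0.00077). Cyp1b1, which is found mainly outside hepatocytes, had 9.63, 10.08, 9.86 and 9.67 in tumor, against 6.85, 7.23, 7.23 and 7.27 in nontumor. It rose 6.34-fold, with every tumor array above every nontumor array and the 4 tumor arrays close together (difference 2.66 ± 0.13 SE, adjusted p = 1.72e-06). LEC liver at 4, 26 and 39 weeks and LEA liver had Cyp1b1 at 6.91, 7.04, 7.28 and 6.91, inside the nontumor range or within 0.1 of it. Of 4 other Ahr response genes measured, Nqo1 fell (difference -1.59) and Ahrr, Tiparp and Aldh3a1 had differences of -0.09, -0.06 and -0.71 that did not pass. Ahr itself (0.27) and its partner Arnt (-0.29) did not pass either.

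The promoters of Cyp1a2 and Cyp1b1 are shown because these relatives of one family went opposite ways in tumor. Each is 250 bases before to 50 bases after the gene's start in RefSeq (build GRCr8), read 5′ to 3′ on the gene's strand, for Cyp1a2 chr8:66978100-66978399 (minus strand) and for Cyp1b1 chr6:21094315-21094614 (plus strand). Capitals mark matches to TATAAA, a core promoter motif, and to GCGTG, the core of the Ahr element, each searched on both strands, so that a match on the other strand is printed as its reverse complement. The motifs do not overlap each other.
Cyp1a2: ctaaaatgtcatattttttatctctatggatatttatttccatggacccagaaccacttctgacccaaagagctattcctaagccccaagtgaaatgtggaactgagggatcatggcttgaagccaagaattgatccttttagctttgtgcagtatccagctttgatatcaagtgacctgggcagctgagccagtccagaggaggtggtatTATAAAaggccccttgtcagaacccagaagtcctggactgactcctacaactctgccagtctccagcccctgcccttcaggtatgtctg
Cyp1b1: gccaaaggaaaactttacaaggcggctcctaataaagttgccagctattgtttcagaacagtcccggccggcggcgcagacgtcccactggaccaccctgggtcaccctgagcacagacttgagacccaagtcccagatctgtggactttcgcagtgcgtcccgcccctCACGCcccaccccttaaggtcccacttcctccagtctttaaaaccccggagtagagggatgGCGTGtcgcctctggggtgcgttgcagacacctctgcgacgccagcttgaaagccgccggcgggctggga
The Cyp1a2 window held TATAAA beginning at -39 and no CpG, with 46.3% G and C. The Cyp1b1 window held 2 matches to GCGTG, no TATAAA and 19 CpG, with 60.7% G and C. Promoters were in the RefSeq table for 43 of the 53 genes. TATAAA was found in 13 of the 43, beside 14.2% of all 33469 promoters, and GCGTG in 11 of the 43, beside 29.7% of all. A match is a run of letters and not a binding site.

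Family 2, the widest group, had 19 of 25 genes lower in tumor and none higher, with a median of -2.05. Its subfamilies 2a, 2b and 2d had 3 of 3 genes lower each, 2j had 2 of 3 and 2c had 4 of 7. Of the 2b genes, Cyp2b12 was at or below the background mark on all 12 arrays. The single genes Cyp2e1, Cyp2f4, Cyp2g1 and Cyp2t1 were all lower, and Cyp2s1 and Cyp2u1 did not pass (0.17 and 0.21). Without tumor array 3, Cyp2u1 passed as higher (0.28, adjusted p = 0.0154). Cyp2d3, which fell most in the family, and Cyp2d2 are members of the debrisoquine-oxidising class. Cyp2d3 had 7.63, 7.51, 8.80 and 6.24 in tumor, against 12.50, 12.21, 11.05 and 11.23 in nontumor. Each tumor array was below each nontumor array by over 2 log2 units, and the fall was 18.4-fold (difference -4.20 ± 0.52 SE, adjusted p = 0.000182). Cyp2d2 had 11.54, 10.20, 12.66 and 6.84 in tumor, and 13.71, 13.69, 13.43 and 13.26 in nontumor. It fell 9.26-fold with tumor array 3 close below the nontumor range and array 4 far below (difference -3.21 ± 1.05 SE, adjusted p = 0.0242). Without tumor array 4 the difference of Cyp2d2 was -2.05, without tumor array 3 it was -3.99, and without tumor array 2 or nontumor array 1 it no longer passed (adjusted p = 0.0535 and 0.0515). The third gene, Cyp2d4, fell by 1.47 with little spread (tumor arrays 8.79 to 9.16, nontumor arrays 10.16 to 10.48), and its dimmer second probe set fell by 0.28.

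Cyp2e1, the enzyme of ethanol and small solvents, had 12.76, 11.84, 13.20 and 8.91 in tumor, against 14.07, 14.06, 13.83 and 13.28 in nontumor. Tumor array 3 was 0.1 below the lowest nontumor array and array 4 more than 4 log2 units below it. The fall was 4.38-fold (difference -2.13 ± 0.81 SE, adjusted p = 0.0444). This call rested on few arrays, since leaving out tumor array 2 or any single nontumor array gave adjusted p-values of 0.0581 to 0.0892, and without tumor array 4 the difference was -1.21. Cyp2f4, known in the rat for oxidising naphthalene in lung, had 8.01, 7.00, 8.41 and 5.80 in tumor and 10.48, 10.40, 10.86 and 10.81 in nontumor. It fell 10.1-fold without overlap (difference -3.33 ± 0.49 SE, adjusted p = 0.000466).

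Among the other genes of family 2, Cyp2b3 (-3.09), Cyp2c23, an arachidonic acid epoxygenase (-3.04), Cyp2j3 (-2.96), Cyp2j4 (-1.77) and Cyp2t1 (-1.63) fell more than 2-fold. Without tumor array 4 the differences of Cyp2b3 and Cyp2c23 were -2.22 and -2.01, and without tumor array 3 they were -3.73 and -3.70. Cyp2a3, Cyp2b12, Cyp2b21 and Cyp2g1 fell by 0.50, 0.26, 0.42 and 0.46, at levels between 4.96 and 6.95 on all arrays that were close to background. The background mark was also lower on tumor arrays, and its part in these falls was not tested. Cyp2b12 lost its call without tumor array 1 (adjusted p = 0.0518). Cyp2c22 and Cyp2c6v1 did not pass although all 4 tumor arrays lay below all nontumor arrays (differences -2.76 ± 1.08 and -2.28 ± 0.99 SE, adjusted p = 0.0502 and 0.0702). Without tumor array 4 both passed, with smaller differences of -1.50 and -1.11, and without tumor array 3 both passed with differences of -3.41 and -2.87. Cyp2c22 also passed without tumor array 1 (-3.30, adjusted p = 0.0384). Cyp2j10, at 5.60 to 6.25 on all arrays, had a difference of -0.10.

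Several genes of families 2 and 3 are sex-biased in the adult rat, and the sex-chromosome pattern given above runs beside them. Male-biased genes are Cyp2c11, the main testosterone hydroxylase of adult male liver, Cyp2c13, Cyp2a2, Cyp3a2 and Cyp3a18. Female-biased genes are Cyp2c12, a steroid sulfate hydroxylase, Cyp2c7, Cyp2a1 and Cyp3a9. The promoters of the best known pair, Cyp2c11 (chr1:246174966-246175265, plus strand) and Cyp2c12 (chr1:248676985-248677284, minus strand), are shown because their differences from LEA had opposite signs in LEC liver at 4, 26 and 39 weeks. The build, window and capitals are those given for family 1.
Cyp2c11: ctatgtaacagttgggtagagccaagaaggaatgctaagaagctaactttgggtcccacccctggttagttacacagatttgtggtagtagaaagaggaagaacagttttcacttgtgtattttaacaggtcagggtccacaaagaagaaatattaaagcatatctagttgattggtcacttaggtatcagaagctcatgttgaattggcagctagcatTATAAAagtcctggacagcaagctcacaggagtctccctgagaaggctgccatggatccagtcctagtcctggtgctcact
Cyp2c12: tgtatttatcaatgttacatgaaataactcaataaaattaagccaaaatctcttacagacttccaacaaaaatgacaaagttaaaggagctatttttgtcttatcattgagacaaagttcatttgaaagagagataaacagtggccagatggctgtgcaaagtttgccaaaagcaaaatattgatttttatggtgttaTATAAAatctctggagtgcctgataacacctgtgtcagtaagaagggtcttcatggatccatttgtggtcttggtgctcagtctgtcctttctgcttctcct
TATAAA began at -31 in the Cyp2c11 window and at -52 in the Cyp2c12 window. Both positions count from the gene's start in RefSeq, which in the Cyp2c12 window falls on an atg. They need not be distances from the start of transcription. Neither window held GCGTG or a CpG, and G and C made up 43.7% of the Cyp2c11 window and 35.3% of the Cyp2c12 window.

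In tumor, 4 of the 5 male-biased genes and 3 of the 4 female-biased genes fell. Cyp2c11 had 7.07, 6.86, 8.45 and 6.97 in tumor, against 8.24, 7.58, 10.77 and 9.99 in nontumor. The groups overlapped through tumor array 3, nontumor arrays 3 and 4 were the high ones, and the difference was -1.81 ± 0.69 SE (adjusted p = 0.0443). Cyp2c13 had 9.09, 7.87, 10.81 and 6.22 in tumor, against 9.96, 9.77, 12.66 and 12.77 in nontumor. Here too nontumor arrays 3 and 4 were high and the groups overlapped through tumor array 3 (difference -2.79 ± 1.05 SE, adjusted p = 0.0423). Both calls were lost without any 1 of tumor arrays 1, 2 and 4 or nontumor arrays 3 and 4 (adjusted p = 0.0625 to 0.109), and Cyp2c13 moved to -3.57 without tumor array 3 and to -2.04 without tumor array 4.

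Cyp2a2, a testosterone hydroxylase, had 5.72, 5.38, 5.99 and 5.31 in tumor, against 6.94, 6.34, 8.23 and 9.10 in nontumor, and fell without overlap (difference -2.05 ± 0.53 SE, adjusted p = 0.0089). Tumor arrays 2 and 4 were within the background range for Cyp2a2, so only 2 of the 4 tumor arrays measured it and the size of its fall is uncertain. Tumor array 4 was within that range for Cyp3a2. Cyp3a18 had 8.54, 7.83, 10.37 and 5.66 in tumor, against 10.71, 10.69, 11.81 and 11.70 in nontumor. It fell 8.77-fold (difference -3.13 ± 0.84 SE, adjusted p = 0.0104), without overlap, and its difference was -2.32 without tumor array 4 and -3.89 without tumor array 3. Cyp3a2, a steroid 6-beta-hydroxylase, had 7.43, 6.45, 9.84 and 5.48 in tumor, against 8.54, 7.65, 11.94 and 10.18 in nontumor. The groups overlapped, and the difference of -2.28 ± 1.10 SE did not pass (adjusted p = 0.0966). It passed without tumor array 3 (-3.12, adjusted p = 0.0228) and without nontumor array 2 (-2.92, adjusted p = 0.0475).

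Cyp2c7, which oxidises retinoids, had 9.54, 10.58, 12.65 and 7.09 in tumor, against 14.01, 13.96, 13.51 and 13.32 in nontumor. It fell 13.3-fold without overlap (difference -3.73 ± 0.96 SE, adjusted p = 0.00867), with -2.78 without tumor array 4 and -4.63 without tumor array 3. Cyp2a1, a testosterone 7-alpha-hydroxylase, had 9.28, 8.83, 10.34 and 8.68 in tumor and 12.28, 12.40, 11.74 and 11.57 in nontumor, and fell 6.57-fold without overlap (difference -2.72 ± 0.36 SE, adjusted p = 0.000239). Cyp3a9 had 8.78, 9.52, 8.52 and 8.34 in tumor, against 11.42, 10.53, 10.44 and 9.81 in nontumor. All tumor arrays were below all nontumor arrays and the fall was 3.39-fold (difference -1.76 ± 0.35 SE, adjusted p = 0.0024). Cyp2c12 had 13.07, 12.04, 13.34 and 8.62 in tumor, against 13.90, 13.89, 13.61 and 13.66 in nontumor. All 4 tumor arrays were below the nontumor range, array 4 by far the most, and the difference of -1.99 ± 0.90 SE did not pass (adjusted p = 0.079). It passed without tumor array 4, at -0.94 (adjusted p = 0.0214), and without tumor array 3, at -2.52 (adjusted p = 0.0389).

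**Figure D3:**
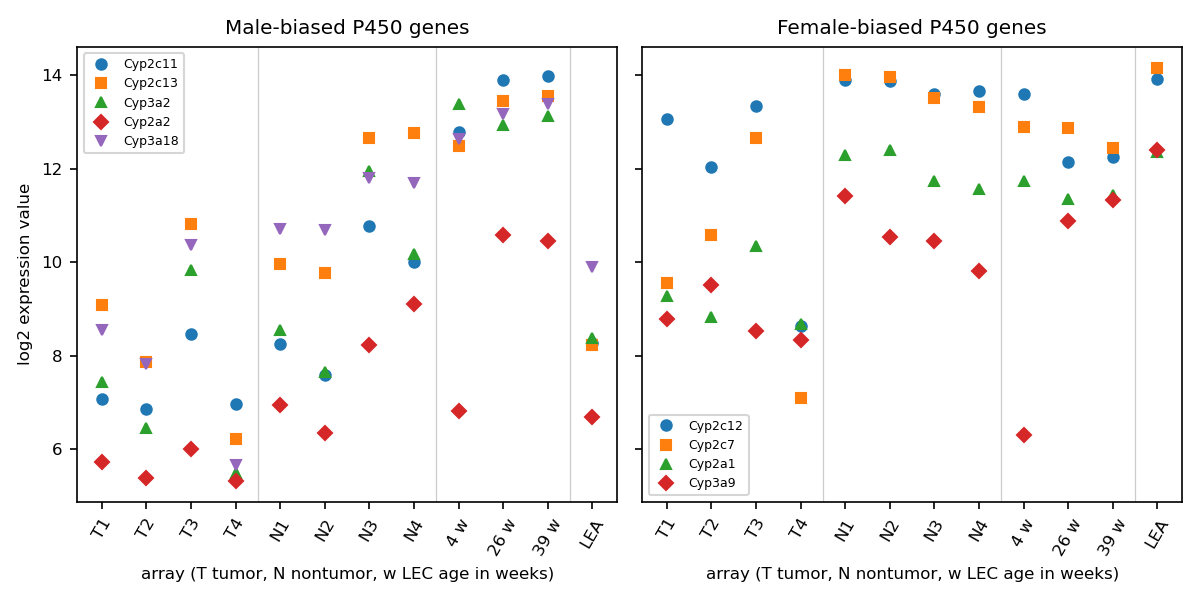
Level (log2, vertical axis) of the 5 male-biased P450 genes (left) and the 4 female-biased P450 genes (right) on each of the 12 arrays (horizontal axis, tumor, nontumor, LEC by age and LEA), 1 point per array. Cyp2c11 lies at 12.80, 13.91 and 13.99 on the LEC arrays of 4, 26 and 39 weeks, against 6.86 to 10.77 on tumor and nontumor arrays and 8.28 on the LEA array, where its point lies under those of Cyp2c13 and Cyp3a2.

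Family 3 had 3 of 4 genes lower in tumor, with a median of -2.70, and 3 of the 4 are given above. Cyp3a23-3a1, the glucocorticoid- and pregnane-inducible steroid 6-beta-hydroxylase controlled by Nr1i2, had 9.40, 8.63, 11.40 and 5.46 in tumor, against 12.76, 12.70, 12.39 and 10.80 in nontumor. Tumor array 3 overlapped nontumor array 4, and tumor array 4 was within the background range. The fall was 10.8-fold (difference -3.44 ± 1.09 SE, adjusted p = 0.0214). Without tumor array 4 it was -2.35, without tumor array 3 it was -4.33, and without nontumor array 1 it did not pass (adjusted p = 0.0516).

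Family 4 hydroxylates fatty acids and eicosanoids, and Ppara controls its subfamily 4a. Cyp4a1, Cyp4a3 and Cyp4a8 all fell more than 8-fold. Cyp4a1 had 9.95, 8.67, 10.63 and 6.40 in tumor, against 13.09, 13.13, 12.65 and 12.29 in nontumor, a 14.7-fold fall without overlap (difference -3.88 ± 0.79 SE, adjusted p = 0.0026) that was -3.04 without tumor array 4. Cyp4a8 had 6.68, 6.35, 6.73 and 6.01 in tumor, against 10.18, 10.87, 10.22 and 9.45 in nontumor. The 4 tumor arrays lay within 1 log2 unit of each other and far below nontumor, and the fall was 13.3-fold (difference -3.74 ± 0.28 SE, adjusted p = 1.28e-05). Cyp4a3 fell by 3.08.

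In subfamily 4f, whose enzymes include hydroxylases of leukotriene B4, 4 of 5 genes fell. Cyp4f4 had 8.22, 7.22, 8.85 and 6.93 in tumor, against 11.37, 11.40, 10.90 and 10.71 in nontumor, and fell 9.78-fold without overlap (difference -3.29 ± 0.40 SE, adjusted p = 0.000149). Cyp4f1 and Cyp4f6 fell by 1.81 and 1.52, and Cyp4f6 had the smallest spread of these, with tumor arrays at 9.60 to 9.81 and nontumor arrays at 11.07 to 11.33 (adjusted p = 2.49e-06). Cyp4f17 fell by 0.44, with overlapping groups and a call that was lost when any array but tumor array 3 or nontumor array 4 was left out (adjusted p = 0.0589 to 0.0997). Cyp4f5, at 6.01 to 6.41 on all arrays, had a difference of 0.06. Cyp4v3, a fatty acid hydroxylase, fell by 1.45. Cyp4b1, known from lung, had a difference of -0.48 that did not pass (adjusted p = 0.0536), and it passed when tumor array 1, nontumor array 1 or nontumor array 2 was left out, at -0.58 to -0.61.

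Among the P450 genes of steroid, retinoid and sterol chemistry, Cyp17a1 had the largest fall. Cyp17a1, the steroid 17-alpha-hydroxylase and lyase, had 8.14, 6.27, 8.64 and 5.07 in tumor, against 11.24, 11.37, 11.19 and 11.55 in nontumor. The nontumor arrays lay within 0.4 of each other, tumor array 4 was within the background range, and the fall was 19.8-fold (difference -4.31 ± 0.69 SE, adjusted p = 0.000715), or -3.65 without tumor array 4. With all arrays this was also the largest fall of the 53 genes, but without tumor array 4 Cyp1a2 (-3.86) and Cyp2d3 (-3.77) fell more. Cyp39a1, an oxysterol 7-alpha-hydroxylase, fell by 2.52 (tumor arrays 6.27 to 7.48, nontumor arrays 8.99 to 9.84). Cyp26a1, which breaks down retinoic acid, had 7.95, 6.48, 6.96 and 6.10 in tumor, against 8.92, 9.47, 8.41 and 8.08 in nontumor. It fell 3.60-fold without overlap (difference -1.85 ± 0.42 SE, adjusted p = 0.00453). Its relative Cyp26b1 had a difference of 0.27 that did not pass (adjusted p = 0.36), while a dimmer second probe set of the same gene fell by 0.24 (adjusted p = 0.0177), so the probe sets of Cyp26b1 disagreed.

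The remaining genes of these families moved less than 2-fold. Cyp11a1, Cyp19a1, Cyp21a1 and Cyp46a1 fell by 0.48, 0.43, 0.37 and 0.19, and Cyp11b1 by 0.28 at background level. Of these, Cyp21a1 lost its call when any of the 4 tumor arrays or nontumor array 3 or 4 was left out (adjusted p = 0.0551 to 0.0956) and Cyp46a1 when tumor array 1, 2 or 3 or nontumor array 1 was left out (adjusted p = 0.0643 to 0.0746). Cyp27b1, the vitamin D 1-alpha-hydroxylase, had a difference of -0.00122. Cyp20a1, an orphan P450, had 9.74, 9.73, 10.04 and 9.82 in tumor, against 9.56, 9.50, 8.88 and 8.49 in nontumor. It rose 1.65-fold without overlap (difference 0.73 ± 0.23 SE, adjusted p = 0.0206), with nontumor arrays 3 and 4 the low ones, and it did not pass without nontumor array 3 (0.65, adjusted p = 0.0565) or after quantile normalization again (0.45, adjusted p = 0.0753).

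Most genes that serve or control P450 enzymes fell in tumor too. All 6 measured electron partners fell in tumor, among them Pgrmc1 (-1.43), Fdx1 (-1.34), Cyb5a (-1.32) and the reductase Por (-0.81). In heme synthesis 6 of 7 genes fell, most of all Alas1, the rate-limiting step (difference -1.95 ± 0.20 SE, adjusted p = 6.13e-05), and Ppox did not pass (-0.42, adjusted p = 0.147). In heme breakdown all 4 genes fell, with Blvrb at -1.91 and Hmox1 at -1.78. Of 11 regulators 8 fell. Ghr, the growth hormone receptor, had 8.49, 7.79, 9.14 and 7.27 in tumor, against 11.98, 12.24, 11.28 and 10.86 in nontumor (difference -3.41 ± 0.43 SE, adjusted p = 0.000192). The pregnane receptor Nr1i2 fell by 1.90, the retinoid partner receptor Rxra by 1.56 and the phenobarbital-responsive receptor Nr1i3 by 1.36. Ahr, Arnt and the glucocorticoid receptor Nr3c1 (-0.11) did not pass. Over all genes 29.2% were called lower in tumor.

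**Figure D4:**
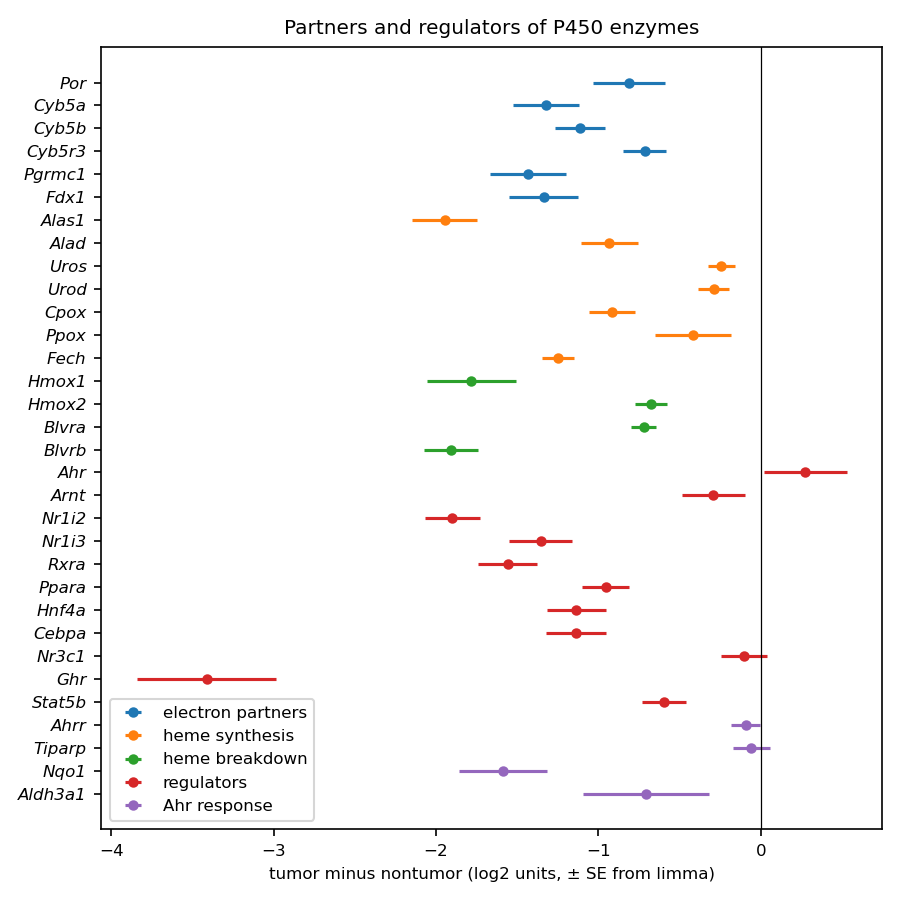
Tumor minus nontumor difference on the log2 scale (horizontal axis) with its limma standard error for genes that serve or control P450 enzymes and for Ahr response genes (rows), coloured by list. All 6 electron partners and all 4 heme breakdown genes are called lower, as are 6 of 7 heme synthesis genes, 8 of 11 regulators and 1 of 4 Ahr response genes, and Ghr lies lowest at -3.41.

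The second comparison set the liver around the tumors against liver of the control strain at the same age. No P450 gene passed the limma test between nontumor LEC liver and LEA liver at 67 weeks (0 of 53 lower and 0 of 53 higher), where 0.331% of all genes were called lower and 0.232% higher. At an unadjusted limma p under 0.05 there were 4 of the 53 (Cyp3a9, Cyp4a8, Cyp2d4 and Cyp2g1), beside 1758 of all 14217 genes. That is no larger a share than among all genes. The median difference of the 53 genes was -0.05, beside -0.03 for all genes. LEA had 1 array, which was assumed to vary like the replicated groups, and the spread of the tumor arrays enters the error of this test. With nontumor arrays 3 and 4 alone as the LEC group, a choice made after seeing the data, Cyp3a9 and Cyp20a1 were called lower and Cyp2a2 and Cyp11a1 higher.

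Cyp3a9 was at 11.42, 10.53, 10.44 and 9.81 on the nontumor arrays and at 12.41 on the LEA array. All 4 nontumor arrays were below LEA, by a mean of 1.86 ± 0.56 (SE), and the difference did not pass (limma adjusted p = 0.231). Cyp4a8 was at 10.18, 10.87, 10.22 and 9.45 on the nontumor arrays and at 8.71 on the LEA array, above LEA on all 4 (difference 1.47 ± 0.45 SE, adjusted p = 0.234). Its second probe set had a difference of 1.06 in the same direction. Cyp2d4 and Cyp2g1 had smaller differences of 0.48 and -0.36 (adjusted p = 0.324 and 0.281). Cyp2c13 had the widest mean difference, 3.07 ± 1.66 SE (adjusted p = 0.508), since nontumor arrays 1 and 2 stood at 9.96 and 9.77, arrays 3 and 4 at 12.66 and 12.77, and LEA at 8.22. Cyp1a2, at 10.92 to 13.01 on nontumor arrays and 13.26 on the LEA array, had a difference of -1.03 ± 0.82 SE, and Cyp17a1 and Cyp2e1 had -0.31 and -0.22. None of the electron partners, heme genes or regulators passed either, and Col1a1 and Col3a1 of the 6 matrix markers rose in nontumor LEC liver.

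The third comparison followed LEC liver over age, with 1 pooled array at 4, 26 and 39 weeks beside the LEA array of 67 weeks. There are no replicates, so values are given without a test, and genes are counted where they were past 2-fold from LEA. The 3 ages share the LEA array, and age and strain change together. At 4 weeks 3 of the 53 genes were lower and 7 higher, beside 1.36% and 0.943% of all genes. At 26 weeks 5 were lower and 7 higher, beside 1.17% and 2.83%, and at 39 weeks 3 were lower and 7 higher, beside 1.36% and 3.05%. The median differences of the 53 genes were 0.05, -0.00172 and 0.03 at 4, 26 and 39 weeks, so the group as a whole stood level with LEA while single genes did not.

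Of the 7 genes past 2-fold above LEA, 4 were male-biased genes at 4 weeks and 5 at 26 and at 39 weeks. Cyp2c11 was at 12.80, 13.91 and 13.99 at 4, 26 and 39 weeks, at 7.58 to 10.77 in nontumor liver at 67 weeks and at 8.28 in LEA, so the younger LEC pools stood 4.52, 5.63 and 5.71 above LEA. Cyp2c13 stood 4.26, 5.23 and 5.35 above LEA, with levels of 12.48, 13.45 and 13.57. Cyp3a2 was at 13.39, 12.93 and 13.12 in the younger LEC pools and at 8.38 in LEA. These genes were thus high at 4 weeks too, on an array whose Xist and Eif2s3y (11.36 and 3.80) were like those of LEA (11.84 and 3.80). Cyp2a2 did not share that: it was at 6.81 at 4 weeks, at 10.59 and 10.45 at 26 and 39 weeks, and at 6.67 in LEA. Cyp3a18 stood 2.75, 3.28 and 3.50 above LEA, with levels of 12.65, 13.17 and 13.39.

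The 4 female-biased genes made up 2 of the 3 genes past 2-fold below LEA at 4 weeks, 4 of the 5 at 26 weeks and all 3 at 39 weeks. Cyp2c12 was at 13.60 at 4 weeks, close to the 13.92 of LEA, and at 12.15 and 12.26 at 26 and 39 weeks. Cyp2c7 was 1.28, 1.29 and 1.72 below LEA, with levels of 12.89, 12.88 and 12.45 beside 14.17. Cyp2a1 was at 11.74, 11.35 and 11.44, beside 12.36 in LEA. Cyp3a9 was at 6.31 at 4 weeks, where it was near background, and at 10.88 and 11.34 at 26 and 39 weeks, beside 12.41 in LEA. The arrays of 26 and 39 weeks are those with the sex-chromosome pattern of males and all other arrays, LEA included, have that of females. The part of sex in these age differences was not tested, and at 26 and 39 weeks sex, age and strain cannot be told apart.

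**Figure D5:**
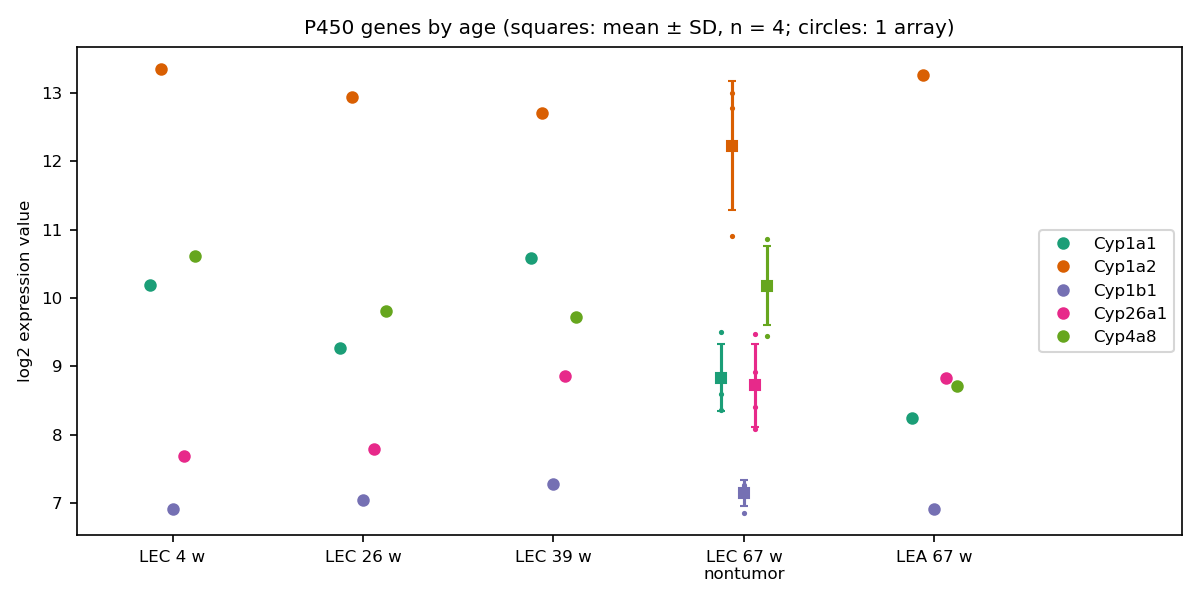
Level (log2, vertical axis) of Cyp1a1, Cyp1a2, Cyp1b1, Cyp26a1 and Cyp4a8 in LEC liver at 4, 26 and 39 weeks, in nontumor LEC liver at 67 weeks and in LEA liver at 67 weeks (horizontal axis), with circles for single arrays and squares for the mean ± SD of the 4 nontumor arrays, whose values are the small dots. Cyp1a1 and Cyp4a8 are above their LEA level on every LEC array shown, and Cyp1b1 stays between 6.85 and 7.28 throughout. At 67 weeks neither Cyp1a1 nor Cyp4a8 passed against LEA (limma adjusted p = 0.603 and 0.234).

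Outside the sex-biased genes few members passed 2-fold. Cyp1a1 was at 10.19, 9.27 and 10.59 at 4, 26 and 39 weeks, beside 8.36 to 9.50 in nontumor liver and 8.25 in LEA. Cyp4a8 was at 10.62, 9.81 and 9.72, beside 9.45 to 10.87 in nontumor liver and 8.71 in LEA. All LEC arrays of nontumor liver at every age were thus above the single LEA array for both genes. For Cyp1a1 the lowest nontumor array was close to LEA, and its difference at 67 weeks did not pass (0.59 ± 0.40 SE, limma adjusted p = 0.603). Cyp26a1 was at 7.69 and 7.80 at 4 and 26 weeks, more than 1 log2 unit below the 8.84 of LEA, and at 8.86 at 39 weeks. Cyp2j4, an arachidonic acid epoxygenase, was at 10.81 at 4 weeks and 9.77 in LEA. Cyp1a2, Cyp2e1, Cyp3a23-3a1, Cyp4a1 and Cyp17a1, all of which fell in tumor, were within 2-fold of LEA at all 3 ages, Cyp2e1 at 14.04, 14.01 and 14.11 beside 14.03. The fall of these 5 in tumor was thus not seen on the younger LEC arrays. Of the 11 regulators, 2 were past 2-fold above LEA and 1 below at 4 weeks, and 1 each way at 26 and at 39 weeks. Nr1i3 was at 9.38, 9.23 and 9.23 at 4, 26 and 39 weeks, at 7.28 to 7.67 in nontumor liver at 67 weeks and at 7.85 in LEA. Ghr was at 11.22, 11.31 and 11.25 at the 3 ages, beside 10.86 to 12.24 in nontumor liver and 12.61 in LEA. The electron partners also went both ways. The reductase Por was at 11.31, 10.63 and 11.47 at the 3 ages, beside 10.43 to 11.34 in nontumor liver and 9.73 in LEA. Fdx1 was at 11.90, 11.65 and 11.47, beside 11.51 to 12.45 in nontumor liver and 12.58 in LEA.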

How the data were processed

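Liver RNA pools were hybridised to 12 Affymetrix arrays, 1 per sample, with 3 µg of RNA each per the labels' protocols. The deposited table holds log2 expression values, for which the submitters' processing notes name RMA and R 2.6.1. Joint normalization of the arrays is not given in the sources used here. Array medians lay between 7.39 and 7.51, and the small number of arrays limits the precision.

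The table had 31099 probe sets, of which 57 are controls and were not tested. Among the other 31042, 20826 were annotated to 1 gene, 436 to several and 9780 to none in the table used, and 20758 could be given current symbols through Entrez identifiers.

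limma 3.58.1 in R 4.3.3 (lmFit, eBayes) fitted the means of the 6 groups to all 12 arrays, with 6 residual and 2.84 prior degrees of freedom. The fit was tested on simulated data. Its p-values are two-sided, with Benjamini-Hochberg adjustment across the 31042 probe sets and a threshold of 0.05. A group of 1 array took its spread from the groups of 4. Title numbers of tumor and nontumor arrays are not said to mark a pair, so no block was used.

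The P450 genes, the other gene lists and the tests were chosen with earlier results of these data known. All 53 genes are accounted for by subfamily. Values on every tumor and nontumor array were given for the 10 largest falls and rises among called genes, the 3 largest differences of each age pool, the sex-biased genes and a set of well-known P450 genes. Values on the other arrays were given for some of these genes only. A gene singled out beyond these, such as Cyp2j4 or Cyp2d4, was chosen after its values were seen. Alternatives covered scaling, a filter on dim probe sets, the mean over probe sets, the prior, the samples fitted, the block, a 2-fold threshold, leaving out each array, and 2 nontumor arrays at a time (chosen after seeing the data). Promoters came from RefSeq (GRCr8). Counts and figures were made with Python 3.11.15, pandas 2.3.3 and matplotlib 3.10.9.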

Additional observations from a re-analysis of the deposited data

Results flagged for a closer look

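In each P450 gene the highest and lowest of 4 tumor and of 4 nontumor arrays were compared with the rest of their group, and 1 array stood far from the other 3 in 6 of these 106 groups, where chance gives about 1 in 20. None of 8 further groups, the medians over gene lists, had such an array. Cyp2c11 was at 8.45 on tumor array 3, and its next tumor array was at 7.07. Cyp2t1 was at 7.98 on tumor array 3, next to 7.43. Cyp2d4 was at 9.16 on tumor array 3, next to 8.84. Cyp26b1 was at 9.43 on tumor array 3, next to 9.02. Cyp46a1 was at 8.41 on tumor array 4, next to 8.30. Cyp1b1 was at 6.85 on nontumor array 1, next to 7.23, and that gap is small beside its rise of 2.66 in tumor.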

How the results depend on the processing

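The count of 40 P450 genes lower in tumor stayed between 29 and 42 under all alternatives run, with a median tumor minus nontumor difference between -2.28 and -1.50. The count of genes higher in tumor was 1 after quantile normalization again and 1 with the 2-fold threshold, and 1 to 3 when single arrays were left out, with 1 without nontumor array 3. For nontumor LEC against LEA the median was 0.017 after quantile normalization again and -0.11 with nontumor arrays 3 and 4 alone, where 2 genes were called lower and 2 higher; in that setting 518 of all genes were higher and 801 lower, against 33 and 47 as reported, and 8 and 9 with only the groups compared. Scaling by quantiles or array medians gave a median of all genes of -0.04 in tumor against nontumor, against 0.07 as reported.

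None of the 42 genes called in tumor turned its direction in any alternative that measured it. Of the 11 not called, 6 turned sign, with no call: Cyp26b1 (-0.012), Cyp2j10 (0.012) and Cyp2u1 (-0.054) after quantile normalization again, Cyp4f5 (-0.041) with array medians subtracted, Cyp2s1 (-0.095) with nontumor arrays 3 and 4 alone, and Cyp27b1 (0.067 with nontumor arrays 3 and 4 alone, 0.0015 after quantile normalization again, -0.045 to 0.038 when single arrays were left out). In nontumor LEC minus LEA, 23 of the 53 genes, none of them called, turned sign in at least 1 alternative. Among the genes whose values are given on every tumor and nontumor array, these were Cyp3a23-3a1 after quantile normalization again (0.019), Cyp2f4 without nontumor array 3 (-0.0055, with -0.0055 to 0.15 over all fits that left out an array), Cyp26a1 (range -0.36 to 0.10), Cyp2d2 (-0.12 to 0.034) and Cyp3a23-3a1 (-0.29 to 0.36), each positive without nontumor array 4, and, with nontumor arrays 1 and 2 alone, Cyp26a1 (0.36), Cyp2a2 (-0.035), Cyp2c11 (-0.37), Cyp2d2 (0.12), Cyp2d3 (0.10), Cyp2e1 (0.036), Cyp2f4 (-0.13), Cyp3a2 (-0.29), Cyp3a23-3a1 (0.48) and Cyp4a1 (0.14). The causes were not tested. Of the 42 calls in tumor, 32 were kept in all 8 fits that left out an array.

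Deviations of same-numbered tumor and nontumor arrays correlated at 0.05, 0.14, -0.08 and 0.14, and those of differently numbered arrays at -0.14 to 0.11. Values this small and this few cannot tell whether the numbers mark pairs. The block was left out of the main fit because the titles are not said to mark pairs. With the replicate block 40 genes were lower and 2 higher, Cyp3a2 and Cyp2c22 passed (adjusted p = 0.0183 and 0.0389), and Cyp46a1 and Cyp4f17 did not (0.072 and 0.0635). With the trended robust prior Cyp2c11, Cyp2c13 and Cyp2e1 did not pass (0.0545, 0.0522 and 0.0545). After quantile normalization again Cyp20a1, Cyp11b1 and Cyp2b12 did not (0.0753, 0.149 and 0.269). Dim levels limit 11 of the 53 genes, and the filter on dim probe sets left 39 of them.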

Other observations

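The nontumor pools fell into arrays 1 and 2 and arrays 3 and 4 for several P450 genes. The male-biased Cyp3a2, Cyp2c13, Cyp2c11, Cyp2a2 and Cyp3a18 were higher on arrays 3 and 4 than on arrays 1 and 2, by 2.97, 2.85, 2.47, 2.03 and 1.05 on the log2 scale. Cyp1a2, Cyp2d3 and Cyp3a23-3a1 were lower on arrays 3 and 4, by means of -1.33, -1.21 and -1.13. The brightest probe set of Xist was at 11.74 and 11.95 on arrays 1 and 2 and at 11.64 and 11.40 on arrays 3 and 4. Its other probe sets were all lower on arrays 3 and 4. They stood at 10.89 and 10.82 against 10.22 and 9.97, at 11.12 and 11.08 against 10.15 and 9.70, and at 10.93 and 10.82 against 9.95 and 9.47. Eif2s3y was between 3.74 and 3.81 on all 4. These genes were picked out after their values were seen and the split was not tested.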
